A study of Mus musculus with 12 samples.

Results

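Matrix metalloproteinases (MMPs), ADAMs, ADAMTS enzymes, ADAMTS-like proteins and TIMPs make up the family described here. Members were the genes whose symbol in the platform annotation was Mmp, Adam, Adamts, Adamtsl or Timp followed by a digit. The rule found 70 genes among the 18193 measured. They had 124 probe sets, and 38 members had 1 probe set. Where a gene had several probe sets tied to it alone, the one with the highest average across all 12 arrays stands for it. The fractions compared were CD34+ and CD34- keratinocytes of skin, both from mice of the strain given as C57 DBA and both taken by magnetic sorting (MACS). CD34 is a surface protein of the hair follicle bulge, where slow-cycling stem cells of the follicle lie. There were 6 arrays per fraction, from 3 isolations that each pooled at least 6 mice, with each RNA placed on 2 arrays. Thus the 6 arrays behind each n = 6 hold 3 RNA samples. The labels give neither the arrays that belong to 1 RNA nor the age or sex of the mice.

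MMPs are zinc enzymes that cut collagens, proteoglycans and other matrix proteins, and are made as inactive proenzymes that other proteases switch on. ADAMs are membrane proteins, part of which cut the outer part off growth factors, receptors and adhesion proteins, a step called shedding. ADAMTS enzymes are secreted and bind the matrix, where several cut proteoglycans, whereas ADAMTS-like proteins share their matrix-binding part and lack the protease. TIMPs are small secreted proteins that block MMPs and part of the ADAMs and ADAMTS enzymes. In skin these proteins are known for remodelling of the basement membrane and dermis during hair cycling and wound repair.

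Values are log2 RMA expression values, and a difference is CD34+ minus CD34- on that scale, with its standard error from limma. The Trpn control, with 3 probe sets at 2.31 to 2.95, marks the low end of the scale. The keratinocyte marker Krt5 averaged 12.17 ± 0.44 on CD34+ arrays and 13.20 ± 0.23 on CD34- arrays (SD, n = 6 each). CD34+ arrays 1, 3 and 5 stood apart, with an SD over probe sets of 2.07, 1.92 and 2.02, against 2.19 to 2.32 on the other 9 arrays. For the genes chosen by the naming rule given below, values are therefore also given without these arrays where the call differs or the size moves by over 1.5 times. For Actb, the control probe set at the 3′ end read higher than that at the 5′ end, a measure of RNA quality. This excess was 3.95 to 5.65 in CD34+ and 1.82 to 3.24 in CD34- arrays. For the Gapdh control it was 3.66 to 4.63 in CD34+ and 3.10 to 3.57 in CD34- arrays. Neither overlapped between the fractions, so the part of RNA quality in the results was not tested and cannot be told apart from that of the fraction.

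Adamtsl4 and Timp2 were 10.2-fold and 3.96-fold higher in CD34+ cells, and Adam8 was 2.26-fold lower. These were the 3 members that changed by 2-fold or more. Of the 70 members 12 rose (17.1%), beside 7.99% of all genes, and 6 fell (8.57%), beside 18.1% of all genes. The other 52 did not pass the threshold of a limma adjusted p under 0.05 over all genes. The median difference was 0.16 over the members and 0.040 over all genes. In 8 members every CD34+ array lay above every CD34- array, beside 4.17% of all genes, and in 3 every CD34+ array lay below, beside 8.77% of all genes. In 15 members both means lay within the Trpn range or under it, and none of these passed.

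These counts were lower with 3 of the 6 CD34+ arrays left out. That also left fewer arrays to test, so a lost call need not come from the values of those 3. Without CD34+ arrays 1, 3 and 5 the members that rose numbered 5 and those that fell 3, beside 8.81% and 10.4% of all genes, and all 8 had been called with 12 arrays. The median difference of the members was then 0.03, beside 0.0061 for all genes. The same 8 members kept their call in each of 22 alternative settings, among them leaving out each of the 12 arrays. They were Adamtsl4, Timp2, Adamts9, Mmp11 and Adam11, which rose, and Adam8, Timp3 and Mmp3, which fell. Settings that presumed which arrays share an RNA cannot show how far these calls depend on shared RNA, because the labels give no partners. With presumed partners as a random block, the correlation within them was -0.157. That fit called 32.5% of all genes in either direction and means of presumed partners 29.2%, against 26.1% in the fit of 12 arrays. Neither was thus a stricter test. Adamtsl4, Mmp11, Adam8 and Mmp3 have 1 probe set each, so the settings of probe set choice left their values unchanged. A further quantile normalization gave 9 members higher and 4 lower, beside 11.5% and 13.7% of all genes (2099 and 2499). Centring each array on its median gave 8 and 6 members, beside 4.95% and 20.9% of all genes (901 and 3801). It moved the median of all genes from 0.040 to -0.06 and that of the members to 0.06.

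**Figure D1:**
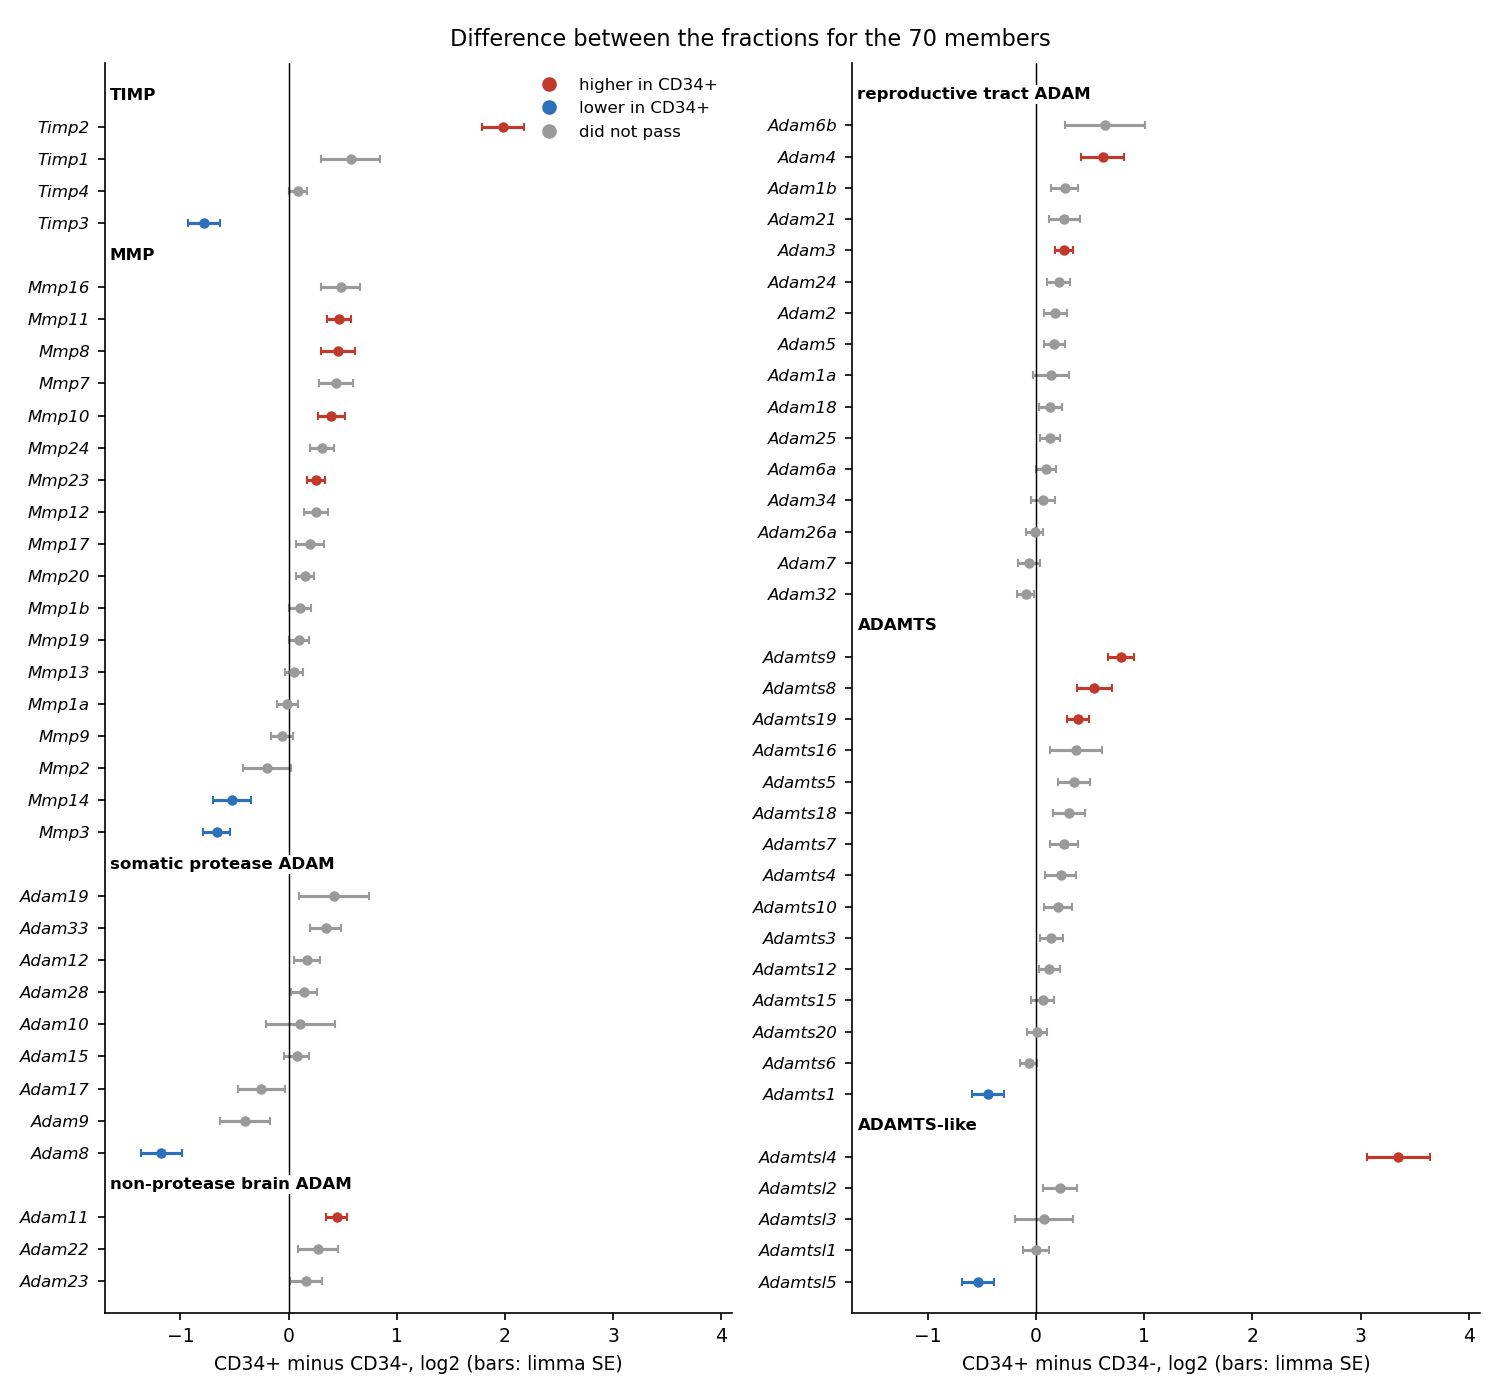
Difference between the fractions (CD34+ minus CD34-, log2) for the 70 members, by subfamily, with bars for limma's standard error. Red points passed and were higher in CD34+ arrays (12 members), blue points passed and were lower (6), and grey points did not pass (52). Adamtsl4 lies farthest to the right at 3.35 and Adam8 farthest to the left at -1.18.

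**Figure D2:**
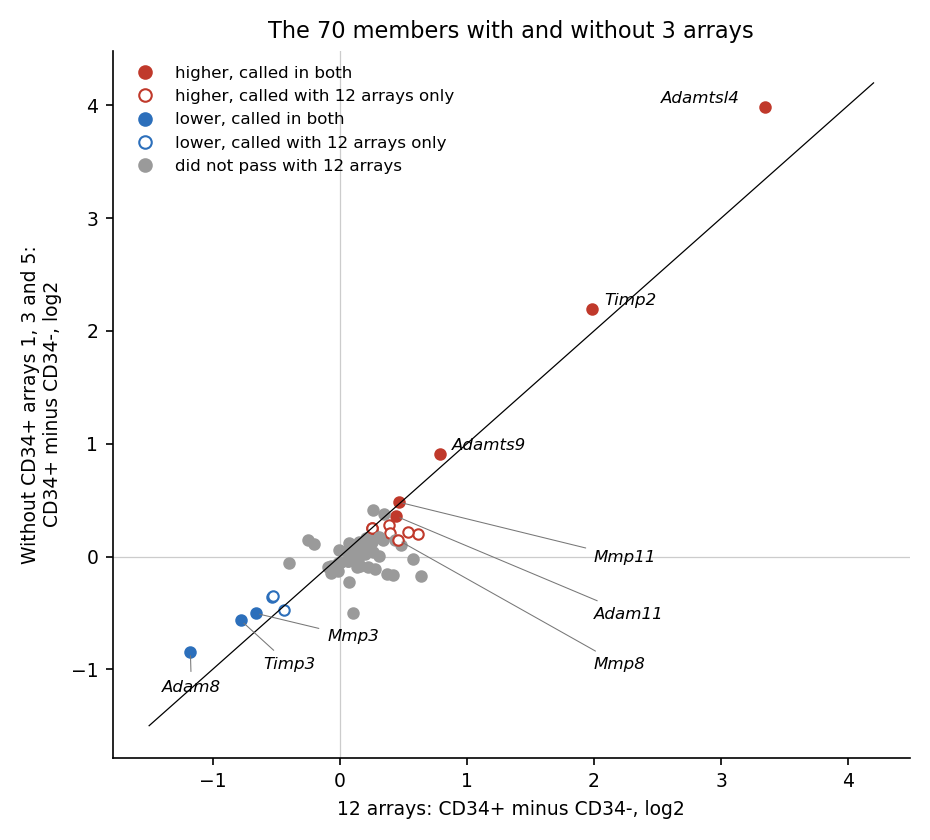
Each of the 70 members with all 12 arrays (x axis) and without CD34+ arrays 1, 3 and 5 (y axis), both as CD34+ minus CD34- on the log2 scale, with the line of equal values. The 8 members called in both are filled in red or blue. Open circles are the members called with 12 arrays alone, such as Mmp8 (0.46 and 0.15).

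The inhibitors moved in opposite directions. Timp2, which blocks MMPs and also helps the membrane enzyme MMP14 to switch on MMP2, rose, while Timp3, which is bound to the matrix and also blocks several ADAMs, fell. Timp1 and Timp4 did not pass. Timp2 (probe set 1454677_at, chr11:118301061-118355411 in GRCm38.p6) read 10.29, 10.31, 9.01, 9.72, 9.59 and 10.11 in CD34+ arrays 1 to 6, against 8.0, 7.91, 7.84, 7.99, 7.74 and 7.64 in CD34- arrays 1 to 6. All CD34+ arrays lay above all CD34- arrays, and CD34+ array 3 was the lowest of its fraction. The means were 9.84 ± 0.50 on CD34+ arrays and 7.85 ± 0.14 on CD34- arrays (SD, n = 6 each), a difference of 1.98 (SE 0.20, limma adjusted p = 1.39e-05). Fewer cells of a type and less RNA per cell cannot be told apart in these bulk fractions. The p-values count 2 arrays of 1 RNA as independent, which makes them too small where those arrays resemble each other. Without CD34+ arrays 1, 3 and 5 the difference was 2.19.

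Timp2 had 6 probe sets, of which 4 rose, with differences of 1.98, 1.96, 1.40 and 0.83. The other two, 1437081_at at 0.22 and 1420924_at at 0.19, did not pass (limma adjusted p = 0.107 and 0.213 over all probe sets) and read near the low end, at 2.74 ± 0.16 and 3.45 ± 0.15 in CD34+ and 2.52 ± 0.11 and 3.27 ± 0.18 in CD34- arrays. Over all 124 member probe sets, 20 rose and 10 fell, beside 7.64% and 13.9% of all probe sets.

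Timp3 (1449335_at, chr10:86300412-86349505) read 6.93, 7.29, 6.47, 7.02, 6.43 and 6.80 in CD34+ arrays 1 to 6, against 7.74, 7.59, 7.45, 7.74, 7.33 and 7.78 in CD34- arrays 1 to 6. Its fractions did not overlap, and the highest CD34+ array, 2, lay just under the lowest CD34- array, 5. The difference was -0.78 (SE 0.15, limma adjusted p = 0.00176), or 1.72-fold lower in CD34+ cells, and -0.57 without CD34+ arrays 1, 3 and 5. Of its other probe sets, 2 fell as well (-0.94 and -0.59), and 1419088_at was at 0.03 (limma adjusted p = 0.89).

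Timp1, an inhibitor of most MMPs, read 5.31, 4.39, 5.87, 3.96, 5.37 and 4.61 in CD34+ arrays 1 to 6, with a mean of 4.92 ± 0.72, against 4.35 ± 0.25 in CD34- arrays. CD34+ arrays 1, 3 and 5 were its 3 highest. The difference of 0.57 (SE 0.27) did not pass (limma adjusted p = 0.133), passed without CD34+ array 4 (0.76, adjusted p = 0.0255), and was -0.03 without arrays 1, 3 and 5. Timp4 averaged 3.54 ± 0.05 in CD34+ and 3.46 ± 0.10 in CD34- arrays, a difference of 0.09 that did not pass (limma adjusted p = 0.433) and whose sign turned under both other scalings.

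The promoters of Timp2 and Timp3 are shown because these inhibitors moved in opposite directions. Each sequence holds 250 bases before and 50 after the RefSeq start of the gene, in the build GRCm38.p6, 5′ to 3′ on the gene's strand. Capitals mark a GC box, GGGCGG or its complement. Neither promoter held the AP-1 motif TGANTCA or the TATA motif TATAAA on either strand, each motif being searched on its own. Timp2 lies at chr11:118355362-118355661 on the minus strand and had 1 such box, and Timp3 at chr10:86300162-86300461 on the plus strand had 2.
Timp2 promoter: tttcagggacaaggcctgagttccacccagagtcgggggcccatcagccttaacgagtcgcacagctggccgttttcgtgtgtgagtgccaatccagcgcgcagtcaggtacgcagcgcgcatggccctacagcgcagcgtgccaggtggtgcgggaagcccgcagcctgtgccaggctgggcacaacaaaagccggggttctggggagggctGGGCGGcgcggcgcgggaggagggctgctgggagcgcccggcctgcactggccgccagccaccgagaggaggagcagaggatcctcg
Timp3 promoter: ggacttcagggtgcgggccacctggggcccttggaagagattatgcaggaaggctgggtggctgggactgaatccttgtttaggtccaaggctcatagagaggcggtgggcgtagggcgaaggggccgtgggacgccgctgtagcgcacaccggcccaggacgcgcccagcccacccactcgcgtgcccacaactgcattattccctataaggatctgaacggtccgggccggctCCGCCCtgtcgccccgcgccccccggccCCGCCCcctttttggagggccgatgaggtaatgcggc
Both were GC-rich, at 68.7% and 67.0% GC, with 25 and 24 CpG pairs. The median over all 32851 promoter entries was 52.7% GC, and 35.7% of them held a GC box on either strand. A match is a description of the letters and not of a site in use.

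**Figure D3:**
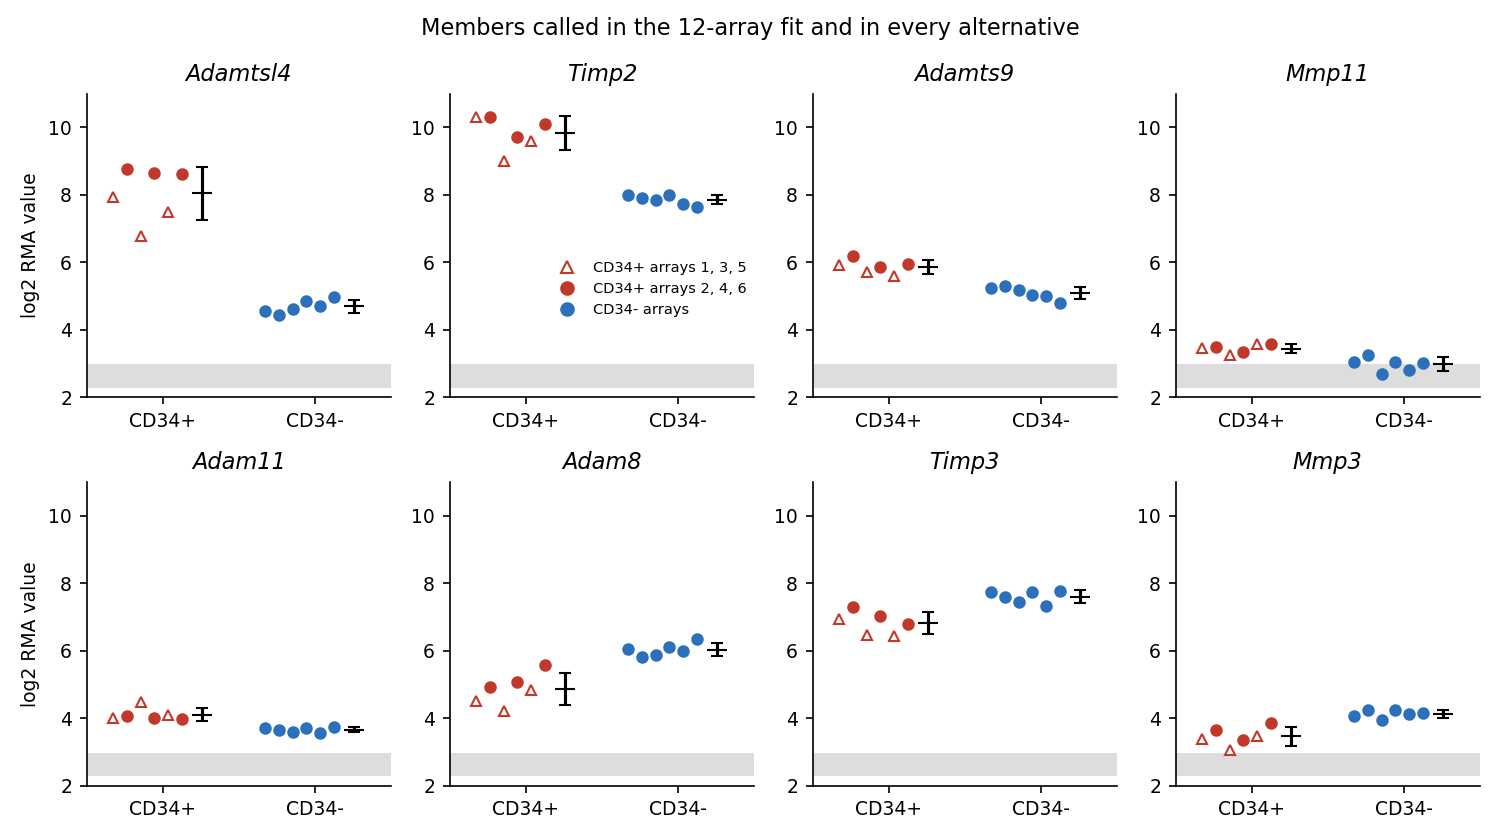
The log2 RMA value on each array for the 8 members called in the fit of 12 arrays and in every alternative, with CD34+ arrays left and CD34- arrays right in each panel. Open triangles are CD34+ arrays 1, 3 and 5, the black bar is the mean with 1 SD (n = 6), and the grey band is the range of the Trpn control. Only Mmp11 among the 8 shows overlapping fractions.

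Among the 18 MMPs, 4 rose and 2 fell, beside 7.99% and 18.1% of all genes, with a median difference of 0.18. Mmp11, a stromelysin that cuts a serum protease inhibitor rather than classic matrix proteins, read 3.45, 3.48, 3.24, 3.32, 3.58 and 3.57 in CD34+ arrays 1 to 6, against 3.03, 3.26, 2.69, 3.05, 2.81 and 3.03 in CD34- arrays 1 to 6. CD34- array 2 lay above CD34+ array 3, so the fractions overlapped, and the CD34- level was near the Trpn range. The difference was 0.46 (SE 0.11, limma adjusted p = 0.00725).

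Mmp3, the stromelysin that cuts many matrix proteins and activates other MMPs, was 1.58-fold lower in CD34+ cells. Its values were 3.38, 3.64, 3.06, 3.35, 3.46 and 3.87 in CD34+ arrays 1 to 6, against 4.05, 4.24, 3.96, 4.23, 4.11 and 4.15 in CD34- arrays 1 to 6. The fractions did not overlap, and all values lay above the Trpn range. The difference was -0.66 (SE 0.12, limma adjusted p = 0.0016), and -0.50 without CD34+ arrays 1, 3 and 5.

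Mmp14, the membrane-bound collagenase that activates MMP2, gave different answers by probe set. The one used (1448383_at) averaged 8.05 ± 0.45 in CD34+ and 8.58 ± 0.09 in CD34- arrays, a difference of -0.52 (SE 0.18, limma adjusted p = 0.0408). A second, 1440920_at, was higher in every CD34+ array, at 5.05 ± 0.20 in CD34+ and 4.63 ± 0.13 in CD34- arrays (0.42, adjusted p = 0.0114 over all probe sets). For 1416572_at the difference was -0.33 (adjusted p = 0.061). Mmp14 was the only member with probe sets called in both directions. Its fall did not pass under a further quantile normalization (-0.24), without CD34+ arrays 1, 3 and 5 (-0.35), or without any 1 of CD34+ arrays 3, 4 and 5 or of the 6 CD34- arrays, where the adjusted p reached 0.0897.

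The gelatinase Mmp2, which cuts basement membrane collagen, averaged 8.39 ± 0.45 in CD34+ and 8.59 ± 0.39 in CD34- arrays. Its difference of -0.20 did not pass (limma adjusted p = 0.501), and the sign turned after a further quantile normalization (0.12) and without CD34+ arrays 1, 3 and 5 (0.11). The other gelatinase, Mmp9, averaged 4.54 ± 0.13 in CD34+ and 4.60 ± 0.17 in CD34- arrays (-0.06, adjusted p = 0.652, and -0.11 without the 3 arrays). The collagenase Mmp13 averaged 2.46 ± 0.06 in CD34+ and 2.42 ± 0.11 in CD34- arrays, both within the Trpn range (0.05, adjusted p = 0.689, with the sign turned under both other scalings).

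A run of 9 MMP genes lies on chromosome 9 between 7272514 and 7699585 in GRCm38.p6, and its members did not share a direction. Going along the chromosome they were Mmp13, Mmp12, Mmp1b, Mmp3, Mmp1a, Mmp10, Mmp8, Mmp20 and Mmp7. Mmp3 fell and Mmp10 and Mmp8 rose. Mmp10, a second stromelysin, averaged 4.43 ± 0.28 in CD34+ and 4.03 ± 0.14 in CD34- arrays (0.40, SE 0.13, limma adjusted p = 0.0362). Mmp8, the collagenase known from neutrophils, averaged 3.81 ± 0.38 in CD34+ and 3.35 ± 0.14 in CD34- arrays (0.46, SE 0.16, adjusted p = 0.0457). Neither rise passed without CD34+ arrays 1, 3 and 5 (0.21 and 0.15) or under either other scaling. Mmp10 also missed without any 1 of CD34+ arrays 1 and 5 or CD34- arrays 2 to 6 (adjusted p up to 0.0794). Mmp8 missed without any 1 of CD34+ arrays 1, 3 and 5 or the 6 CD34- arrays (up to 0.1).

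Of 7 measured neutrophil markers 1 rose and 0 fell, beside 7.99% and 18.1% of all genes. Their summed linear level was 82.1 to 133 in CD34+ and 76.4 to 88.1 in CD34- arrays, and their part in the value of Mmp8 was not tested. The other 6 genes of the run did not pass, with differences between -0.01 for Mmp1a and 0.44 for Mmp7 (limma adjusted p = 0.0517), and 5 of the MMPs, all in this run, had both means within the Trpn range.

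The promoters of this run share letters that most other members lack. All 9 genes had a RefSeq promoter entry, 11 entries in all, and 9 genes held the TATA motif TATAAA and 8 the AP-1 motif TGANTCA, on either strand. Both motifs stood together in 8 of the 11 entries, against 0 of 35 entries of the other members and 1.54% of all 32851. No gene of the run held a GC box, against 21 of the 32 other members with an entry. Mmp3 and Mmp10 are shown because they are nearby stromelysin genes that were called in opposite directions. Mmp3 is read at chr9:7445572-7445871 and Mmp10 at chr9:7502092-7502391, both on the plus strand of GRCm38.p6. Capitals mark TGAGTCA and TATAAA, which begin 46 and 7 bases before the RefSeq start in Mmp3 and 63 and 29 bases before it in Mmp10.
Mmp3 promoter: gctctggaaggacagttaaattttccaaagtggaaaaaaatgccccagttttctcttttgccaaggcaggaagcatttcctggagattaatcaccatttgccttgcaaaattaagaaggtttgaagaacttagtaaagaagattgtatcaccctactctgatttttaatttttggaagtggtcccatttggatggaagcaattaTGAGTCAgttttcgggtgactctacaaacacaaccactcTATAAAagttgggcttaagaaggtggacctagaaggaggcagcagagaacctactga
Mmp10 promoter: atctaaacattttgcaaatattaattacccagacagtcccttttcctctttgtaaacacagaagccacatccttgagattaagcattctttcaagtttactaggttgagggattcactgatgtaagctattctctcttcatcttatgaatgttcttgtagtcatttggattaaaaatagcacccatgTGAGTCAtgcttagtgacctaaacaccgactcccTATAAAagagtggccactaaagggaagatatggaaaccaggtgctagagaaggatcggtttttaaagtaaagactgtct
These promoters held 40.0% and 37.7% GC, with 1 and 2 CpG pairs. Over all 46 member entries, 23.9% held the AP-1 motif and 28.3% the TATA motif, beside 7.81% and 13.6% of all entries. The PEA3 motif AGGAAG stood in 39.1% of member entries and 35.4% of all.

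The last MMP that rose was Mmp23, a membrane-anchored enzyme, at 4.31 ± 0.09 in CD34+ and 4.05 ± 0.09 in CD34- arrays. The fractions did not overlap, and the difference was 0.25 (SE 0.08, limma adjusted p = 0.0393). Its second probe set, 1417281_a_at, rose too (0.65, adjusted p = 0.00609 over all probe sets). The rise did not pass under either other scaling, with CD34+ arrays 1, 3 and 5 left out (0.25, adjusted p = 0.0932), or without any 1 of CD34+ arrays 1, 5 and 6 or CD34- arrays 1, 2, 4, 5 and 6 (up to 0.0794).

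Of 9 ADAMs known as proteases of body tissues, 1 fell and 0 rose, beside 18.1% and 7.99% of all genes. Adam8 (1416871_at, chr7:139978932-139995207), a shedding enzyme best known from leukocytes, read 4.52, 4.91, 4.21, 5.07, 4.84 and 5.58 in CD34+ arrays 1 to 6, against 6.05, 5.82, 5.88, 6.11, 5.99 and 6.35 in CD34- arrays 1 to 6. The fractions did not overlap, and CD34+ arrays 1 and 3 were the lowest. The difference was -1.18 (SE 0.19, limma adjusted p = 0.000548), and -0.84 without CD34+ arrays 1, 3 and 5. Leukocyte markers moved with it in part, beside 18.1% of all genes lower and 7.99% higher. All 7 measured T cell markers fell, and their summed linear level was 337 to 874 in CD34+ and 1632 to 3118 in CD34- arrays. Of 9 Langerhans and myeloid markers 4 fell and 0 rose, with sums of 404 to 469 in CD34+ and 585 to 1027 in CD34- arrays, and Itgam had both means within the Trpn range. Of these 9 markers 4 had a positive difference, and of 7 neutrophil markers 1 rose and 0 fell. The part of leukocytes in the value of Adam8 was not tested.

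Adam10 and Adam17, the main shedding enzymes of Notch receptors and of TNF and EGF-receptor ligands, did not pass on the probe sets used. Adam10 read 10.67, 9.45, 11.07, 8.98, 9.52 and 9.20 in CD34+ arrays 1 to 6, with a mean of 9.81 ± 0.85, against 9.70 ± 0.28 in CD34- arrays. CD34+ arrays 1 and 3 lay above all CD34- arrays and the others did not. The difference was 0.11 (SE 0.32, limma adjusted p = 0.812), and -0.50 without CD34+ arrays 1, 3 and 5 (adjusted p = 0.0616). Another Adam10 probe set, 1450105_at, was lower in every CD34+ array, at 3.03 ± 0.27 in CD34+ and 4.64 ± 0.56 in CD34- arrays (-1.60, adjusted p = 0.000306 over all probe sets), while its remaining probe sets were at 0.23 and 0.01 and did not pass.

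Adam17 averaged 8.56 ± 0.52 in CD34+ and 8.81 ± 0.26 in CD34- arrays (-0.25, limma adjusted p = 0.39). That sign turned after a further quantile normalization (0.06) and without CD34+ arrays 1, 3 and 5 (0.14). Its probe set 1421859_at fell, at 6.54 ± 0.24 in CD34+ and 7.42 ± 0.28 in CD34- arrays without overlap (-0.88, adjusted p = 0.000857 over all probe sets), and 1421857_at was at -0.11. For both genes the call thus depended on the probe set, and the cause was not tested.

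Adam9, a shedding enzyme of keratinocytes among other cells, averaged 8.30 ± 0.63 in CD34+ and 8.70 ± 0.05 in CD34- arrays (-0.40, limma adjusted p = 0.203). Without CD34+ arrays 1, 3 and 5 the difference was -0.06 (adjusted p = 0.823). Adam12, known from muscle and placenta, was at 0.17 (adjusted p = 0.31), Adam15 at 0.08 (0.628) and Adam19 at 0.42 (0.344). None of these passed. Without the 3 arrays Adam12 was at 0.03, Adam15 at 0.12 and Adam19 at -0.17, and Adam15 turned sign after median centring (-0.03).

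**Figure D4:**
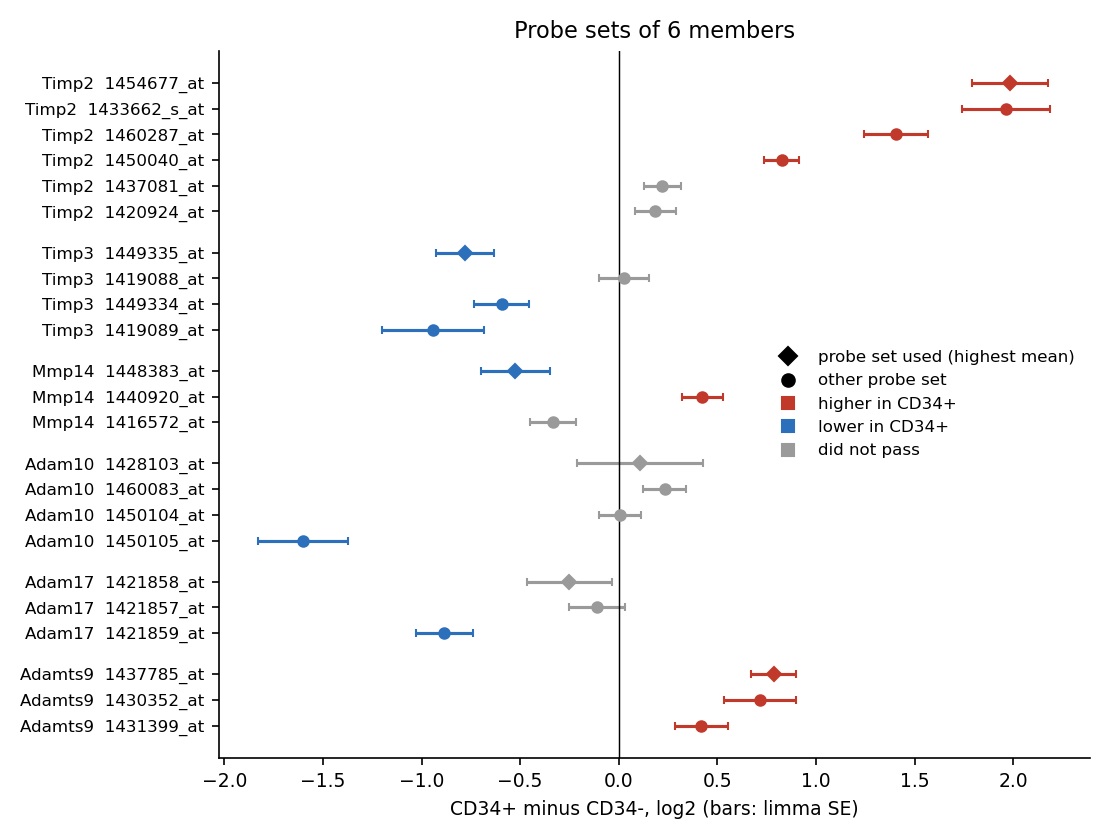
Difference between the fractions (CD34+ minus CD34-, log2) for each probe set of 6 members, with bars for limma's standard error. Diamonds are the probe sets used, with the highest mean, and colours show the calls over all probe sets. Timp2 and Adamts9 have probe sets on the right of zero alone, Mmp14 has called probe sets on both sides, and Adam10 and Adam17 each have 1 called probe set on the left.

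Of 3 ADAMs without protease activity known from the brain, Adam11 rose, beside 7.99% of all genes. It read 4.00, 4.07, 4.48, 4.00, 4.08 and 3.98 in CD34+ arrays 1 to 6, against 3.70, 3.64, 3.60, 3.71, 3.56 and 3.75 in CD34- arrays 1 to 6. All CD34+ arrays lay above the CD34- arrays, with array 3 the highest. The difference was 0.44 (SE 0.10, limma adjusted p = 0.00512), while that of its second probe set was 0.19 (over all probe sets, adjusted p = 0.168).

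Of 16 ADAMs known mainly from testis and epididymis 2 rose and 0 fell, beside 7.99% and 18.1% of all genes. Of these 16, 7 had both means within the Trpn range or under it. Adam4 averaged 6.22 ± 0.51 in CD34+ and 5.61 ± 0.16 in CD34- arrays (0.62, SE 0.20, limma adjusted p = 0.0353). Its highest CD34+ values, 6.48, 6.99 and 6.45, were those of arrays 1, 3 and 5, and without them the difference was 0.20 (adjusted p = 0.32). Adam3, a sperm surface protein, averaged 3.27 ± 0.12 in CD34+ and 3.02 ± 0.06 in CD34- arrays (0.26, SE 0.08, adjusted p = 0.0386), without overlap and close to the Trpn range. Adam4 missed the threshold without any 1 of CD34+ arrays 1, 3 and 5 or CD34- arrays 1, 2, 4, 5 and 6 (up to 0.0787). Adam3 missed it without any 1 of CD34+ arrays 3 to 6 or the 6 CD34- arrays (up to 0.0799), under both other scalings, and without CD34+ arrays 1, 3 and 5 (0.25).

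Among the 15 ADAMTS enzymes 3 rose and 1 fell, beside 7.99% and 18.1% of all genes, with a median difference of 0.23. Of those called, Adamts9 alone kept its call without CD34+ arrays 1, 3 and 5. Adamts9 (1437785_at, chr6:92772699-92944450), a proteoglycan-cutting enzyme, read 5.92, 6.18, 5.72, 5.86, 5.58 and 5.94 in CD34+ arrays 1 to 6, against 5.23, 5.29, 5.17, 5.02, 5.01 and 4.78 in CD34- arrays 1 to 6. The fractions did not overlap. The difference was 0.78 (SE 0.12, limma adjusted p = 0.000379), a 1.72-fold rise, and 0.91 without CD34+ arrays 1, 3 and 5. Both its other probe sets rose as well (0.72 and 0.42).

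Adamts8, another proteoglycanase, averaged 5.55 ± 0.37 in CD34+ and 5.02 ± 0.19 in CD34- arrays (0.54, SE 0.16, limma adjusted p = 0.0251), and 0.22 without CD34+ arrays 1, 3 and 5. It missed the threshold without any 1 of CD34+ arrays 1 and 5 or CD34- arrays 4, 5 and 6 (adjusted p up to 0.0616). Adamts19 averaged 3.37 ± 0.20 in CD34+ and 2.98 ± 0.05 in CD34- arrays, without overlap (0.39, SE 0.10, adjusted p = 0.0119). Its CD34- level was near the Trpn range, and without CD34+ arrays 1, 3 and 5 the difference was 0.28 (adjusted p = 0.0505).

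Adamts1 and Adamts5, proteoglycanases that lie side by side on chromosome 16 (85793827 to 85901125), had differences of opposite sign, of which 1 passed. Adamts1 averaged 6.21 ± 0.31 in CD34+ and 6.65 ± 0.22 in CD34- arrays (-0.44, SE 0.15, limma adjusted p = 0.0432). It missed the threshold after a further quantile normalization (-0.23). The same held with CD34+ arrays 1, 3 and 5 left out (-0.48, adjusted p = 0.0551) and without any 1 of CD34+ arrays 2 to 5 or CD34- arrays 1, 2, 3, 5 and 6 (up to 0.0961). Adamts5 averaged 3.92 ± 0.31 in CD34+ and 3.57 ± 0.19 in CD34- arrays (0.35, adjusted p = 0.0888) and passed without CD34+ array 3 (0.43) or 4 (0.42). Adamts4 averaged 3.90 ± 0.34 in CD34+ and 3.67 ± 0.10 in CD34- arrays and did not pass (0.23, adjusted p = 0.247, and 0.06 without CD34+ arrays 1, 3 and 5). Adamts2, the procollagen processing enzyme, was not analysed here.

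Among the 5 ADAMTS-like genes, Adamtsl4 showed the widest difference of the whole family. ADAMTSL4 binds fibrillin microfibrils and is known for anchoring the lens of the eye. It has 1 probe set (1451932_a_at, chr3:95676201-95687927), which read 7.92, 8.76, 6.78, 8.65, 7.50 and 8.60 in CD34+ arrays 1 to 6, against 4.55, 4.44, 4.62, 4.84, 4.70 and 4.98 in CD34- arrays 1 to 6. The lowest CD34+ array, 3, was still far above the highest CD34- array, 6. The means were 8.04 ± 0.79 in CD34+ and 4.69 ± 0.20 in CD34- arrays, a difference of 3.35 (SE 0.29, limma adjusted p = 4.64e-06). It was 3.98 without CD34+ arrays 1, 3 and 5, which were its 3 lowest of that fraction.

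Its promoter is shown as that of the member with the widest difference, read at chr3:95687868-95688167 on the minus strand of GRCm38.p6, with its 4 GC boxes in capitals.
Adamtsl4 promoter: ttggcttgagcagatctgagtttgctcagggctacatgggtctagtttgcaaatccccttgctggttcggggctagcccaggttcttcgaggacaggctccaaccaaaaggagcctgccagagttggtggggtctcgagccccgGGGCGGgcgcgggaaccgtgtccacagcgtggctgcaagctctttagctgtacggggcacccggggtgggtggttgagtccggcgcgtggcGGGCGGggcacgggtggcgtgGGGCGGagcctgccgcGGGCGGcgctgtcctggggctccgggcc
It held 68.0% GC and 24 CpG pairs, and neither the AP-1 nor the TATA motif.

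Adamtsl5, which also binds microfibrils, averaged 4.58 ± 0.23 in CD34+ and 5.11 ± 0.31 in CD34- arrays, a difference of -0.53 (SE 0.15, limma adjusted p = 0.0185) with overlapping fractions. Without CD34+ arrays 1, 3 and 5 it was at -0.36 and missed the threshold (adjusted p = 0.176), while its second probe set showed -0.24 (over all probe sets, adjusted p = 0.274). The other 3 ADAMTS-like genes did not pass, with differences from -0.003 for Adamtsl1 to 0.22 for Adamtsl2.

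Genes that activate, hold, inhibit or are cut by these enzymes were read from a list of 72 textbook genes, of which 67 were measured. Of these 11 rose and 12 fell, beside 7.99% and 18.1% of all genes, with a median of 0.09. The partners that carry ADAMs to the surface or hold MMPs there leaned lower: 7 of 13 fell and 0 rose, with a median of -0.48. Rhbdf2, a rhomboid-like protein that helps ADAM17 to leave the endoplasmic reticulum, read 5.36, 5.82 and 6.06 (lowest, median, highest) in CD34+ and 6.86, 6.96 and 7.50 in CD34- arrays. The fractions did not overlap, and the difference was -1.30 (SE 0.15, limma adjusted p = 4.68e-05). Rhbdf1, a partner named after its value was seen, averaged 9.13 ± 0.34 in CD34+ and 9.41 ± 0.36 in CD34- arrays. Its difference of -0.28 did not pass (limma adjusted p = 0.268), and was 0.004 without CD34+ arrays 1, 3 and 5. Cd9, a tetraspanin that binds ADAMs and integrins, averaged 10.20 ± 0.48 in CD34+ and 11.37 ± 0.24 in CD34- arrays (-1.17, SE 0.20, adjusted p = 0.000816).

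The other partners that fell, named after their values were seen, were Nrd1 (-1.16), a protease that enhances shedding, the tetraspanins Tspan5 (-1.11) and Tspan14 (-1.02), which escort ADAM10, Bsg (-0.90), an inducer of MMPs, and Cd44 (-0.48), which docks MMPs at the cell surface. Nrd1 was at -0.64 without CD34+ arrays 1, 3 and 5 (limma adjusted p = 0.0429). Bsg and Cd44 did not pass after a further quantile normalization (-0.74 and -0.22) or without CD34+ arrays 1, 3 and 5 (-0.27 and -0.23). Bsg also missed without any 1 of CD34+ arrays 1, 3 and 5 or CD34- arrays 1, 4, 5 and 6 (limma adjusted p up to 0.0908). Cd44 missed without any 1 of CD34+ arrays 1 and 5 or CD34- arrays 1, 4 and 6 (up to 0.0642). Without CD34+ arrays 1, 3 and 5, 5 partners fell and 1 rose, beside 10.4% and 8.81% of all genes. Tspan17 rose there (1.07), and was at 0.46 with all arrays (limma adjusted p = 0.238). Of 8 keratinocyte markers 5 fell and 0 rose, beside 18.1% and 7.99% of all genes. Their summed levels were 22352 to 34758 in CD34+ and 32149 to 46538 in CD34- arrays, and their part in the partners' values was not tested.

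Of 5 measured inhibitors other than TIMPs, 2 rose and 1 fell, beside 7.99% and 18.1% of all genes. Sfrp1, a Wnt antagonist that also inhibits ADAM10, averaged 8.93 ± 0.54 in CD34+ and 7.65 ± 0.20 in CD34- arrays (1.29, SE 0.21, limma adjusted p = 0.000617), without overlap. Reck, a membrane inhibitor of MMPs, rose by 0.52 and Serpinb2, an inhibitor of plasminogen activators, fell by 0.95 on the log2 scale, both named after their values were seen. Reck was at 0.30 and Serpinb2 at -0.61 without the 3 arrays, and both still passed. Of 7 activators 1 rose and 0 fell, beside 7.99% and 18.1% of all genes. The 1 that rose was the plasminogen activator Plat (1.24, limma adjusted p = 0.00173), likewise named after its value was seen. Among 7 astacin proteases and their enhancers 1 rose and 0 fell, beside 7.99% and 18.1% of all genes. Pcolce2, an enhancer of procollagen trimming, rose, at 4.73 ± 0.81 in CD34+ and 2.96 ± 0.18 in CD34- arrays (1.77, SE 0.30, adjusted p = 0.000721).

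Of 14 matrix substrates 5 rose and 0 fell, beside 7.99% and 18.1% of all genes. Without CD34+ arrays 1, 3 and 5, 4 rose and 0 fell, beside 8.81% and 10.4%. Col1a2, a chain of type I collagen, averaged 8.26 ± 0.46 in CD34+ and 5.11 ± 0.49 in CD34- arrays (3.15, limma adjusted p = 1.5e-06). Fn1, fibronectin, averaged 8.20 ± 0.49 in CD34+ and 6.62 ± 0.49 in CD34- arrays (1.58, adjusted p = 0.000477). Tnc, tenascin C, averaged 5.03 ± 0.46 in CD34+ and 3.49 ± 0.09 in CD34- arrays (1.55, adjusted p = 4.48e-05). The fractions of these 3 genes did not overlap.

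Markers of dermal fibroblasts, which make much of the skin's collagen and TIMP2, moved the same way in part. Col1a1, Col1a2 and Col3a1 are in both this list of 14 and the matrix substrates, so the rises of Col1a1 and Col1a2 count in both. Of the 14, 8 rose and 0 fell, beside 7.99% and 18.1% of all genes. The other 6 did not pass, namely Col3a1 (2.20), Pdgfra (0.95), Fap (0.42), Cd248 (0.36), Twist2 (0.10) and Pdgfrb (0.0009). Col3a1 was at 0.54 without CD34+ arrays 1, 3 and 5 (limma adjusted p = 0.718). The summed linear level of the 14 was 559 to 1895 in CD34+ and 188 to 374 in CD34- arrays. Without CD34+ arrays 1, 3 and 5, 7 of the 14 rose, beside 8.81% of all genes, and the CD34+ sums were 559 to 1487. The median difference of the 14 was 1.04 with all arrays and 0.49 without those 3. None of the 14 had both means within the Trpn range, and their part in the rises of Timp2, Adamtsl4, Adamts9 and the matrix genes was not tested. Endothelial markers gave sums of 135 to 171 in CD34+ and 114 to 130 in CD34- arrays, with 1 of 7 higher. Of the bulge markers 7 of 8 rose, beside 7.99% of all genes. Among these was Cd34, by which the fractions were sorted, while Krt15 did not pass (-0.29, limma adjusted p = 0.106). Of the smooth muscle and pericyte markers 2 of 5 rose, of the dermal papilla markers 1 of 5, and of 6 melanocyte markers 1 rose and 1 fell.

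Of 18 substrates known to be shed from the surface 2 rose and 4 fell, near the shares of all genes (7.99% higher and 18.1% lower). Epgn, an EGF-receptor ligand, averaged 6.94 ± 0.33 in CD34+ and 8.75 ± 0.40 in CD34- arrays without overlap (-1.81, SE 0.19, limma adjusted p = 2.46e-05). The Notch ligand Dll1 averaged 7.54 ± 0.56 in CD34+ and 8.87 ± 0.36 in CD34- arrays, again without overlap (-1.33, SE 0.24, adjusted p = 0.00124). Il6ra, the receptor of interleukin 6, averaged 6.61 ± 0.86 in CD34+ and 8.19 ± 0.60 in CD34- arrays (-1.58, SE 0.37, adjusted p = 0.00654), and missed the threshold without CD34+ arrays 1, 3 and 5 (-1.05, adjusted p = 0.108). A second Notch ligand, Jag1, rose (0.87), as did the proteoglycan Sdc1 (0.66), which did not pass after median centring (0.56) or with its probe set of largest variance (0.02). The receptor Notch1 was at -0.74 (adjusted p = 0.0446) and did not pass without the 3 arrays (-0.24). Notch1 also missed without any 1 of CD34+ arrays 1, 3, 5 and 6 or CD34- arrays 1, 3, 4, 5 and 6 (limma adjusted p up to 0.0989). Jag1, Sdc1 and Notch1 were named after their values were seen.

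**Figure D5:**
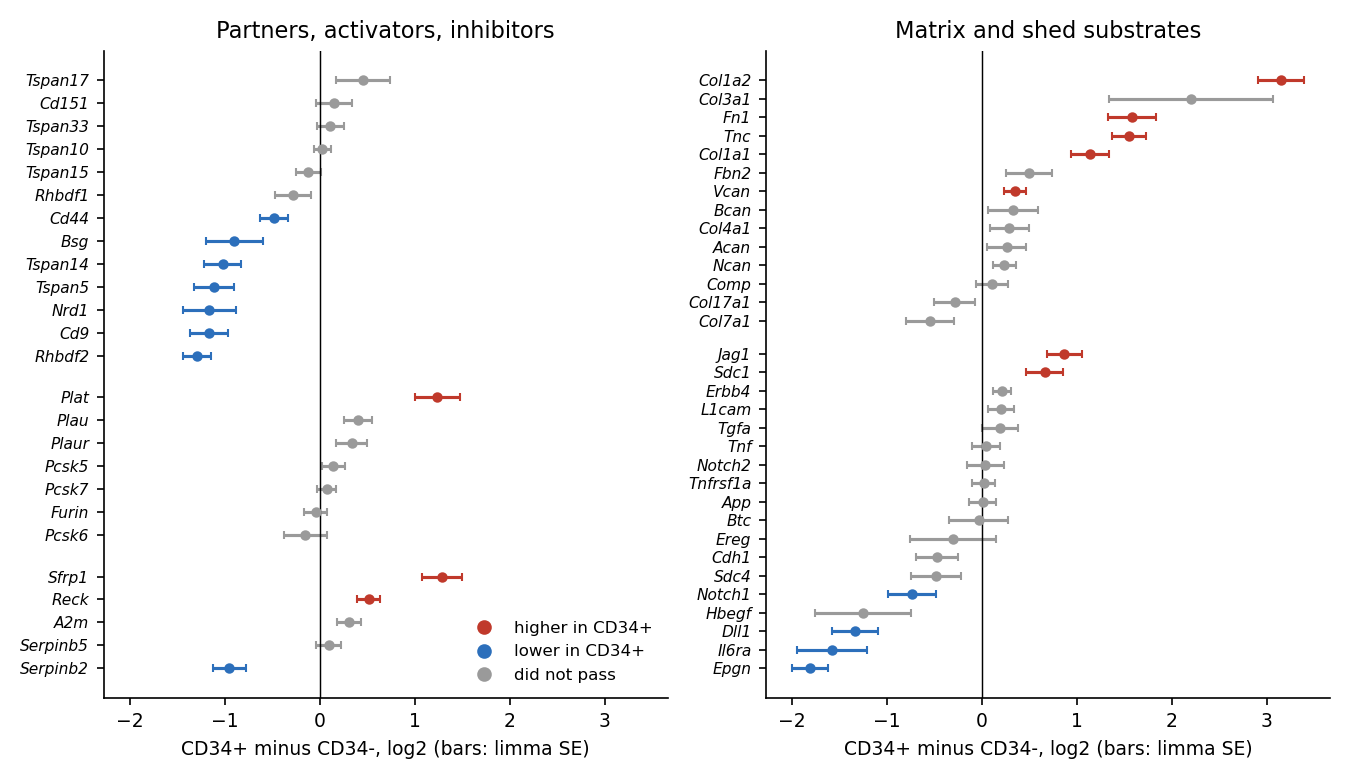
Difference between the fractions (CD34+ minus CD34-, log2) for partners, activators and inhibitors (left panel, top to bottom) and for matrix and shed substrates (right panel), with bars for limma's standard error. Red points passed and were higher in CD34+ arrays, blue points passed and were lower, and grey points did not pass. No red point stands among the 13 partners and no blue point among the 14 matrix substrates.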

How the data were processed

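The deposited table holds log2 values that the authors made from Affymetrix mouse arrays with RMA, per the submitters' processing notes. The RMA version and whether the 12 arrays were normalized together are not given in the sources used here. Values ran from 1.87 to 14.1. Of 45101 probe sets 64 controls were set aside. In the platform annotation 34945 named 1 gene (18193 genes in all), 932 named several and 9160 had no name.

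The fractions were set against each other in limma (version 3.58.1, R version 4.3.3), using lmFit and eBayes without a block and two-sided tests, with Benjamini-Hochberg adjustment over all genes and a threshold of 0.05. The test was checked on simulated data, and no result of that check is given here. It cannot show how far the p-values hold for arrays that share an RNA or that stood apart in spread. Errors beside means are SDs over 6 arrays, and the number of arrays limits the precision. Members and lists were chosen with earlier results of these data known. Named genes are the members that passed (up to 15 each way), 20 fixed names whatever their result, and the 5 widest rises and falls of the list of regulators and substrates. ADAMs were grouped by textbook roles, since the planned split by a protein motif was not made. Alternatives covered scaling, probe set choice, a filter on low values, presumed RNA partners, the variance model and leaving out arrays. Promoters are RefSeq entries of GRCm38.p6, found for 41 of the 70 members.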

Additional observations from a re-analysis of the deposited data

Results flagged for a closer look

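In 4 of 62 groups of 6 arrays of the named members, 1 array stood apart from the other 5 by Dixon's criterion, where chance gives about 1 group in 20. Adam11 read 4.48 on CD34+ array 3, with the next CD34+ array at 4.08. Mmp10 read 4.29 on CD34- array 1, with the next at 4.04. Adam12 read 3.19 on CD34- array 3, with the next at 2.99. Adamts5 read 3.20 on CD34- array 4, its lowest, with the next at 3.55. Adam11 kept its call without CD34+ array 3, and Mmp10 kept its call without CD34- array 1.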

How the results depend on the processing

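Leaving out CD34+ arrays 1, 3 and 5 gave 5 members higher and 3 lower and 1900 of all genes lower, against 12, 6 and 3296 with all arrays. Median centring gave 901 of all genes higher, against 1454. Leaving out 1 array at a time gave 6 to 17 members higher and 4 to 6 lower, 1041 to 2068 of all genes higher and 2627 to 3889 lower, and 10 to 16 higher and 9 to 15 lower in the list of regulators and substrates. The median of the members ran from 0.11 to 0.20 in those fits. Adam10 turned from 0.11 to -1.60 (limma adjusted p = 0.000214) with its probe set of largest variance, and the cause was not tested. Array numbers were checked for pairing across fractions: 4 of 6 correlations were over 0.1, with a range of -0.27 to 0.50, so the numbers were not taken to pair the arrays. With the replicate block 11 members were higher and 6 lower, beside 8.09% and 19.4% of all genes. Adam3 and Mmp23 missed the threshold with that block, with the filter on low values and with means of arrays 1-2, 3-4 and 5-6, where Mmp14 and Adamts1 missed it too and Timp1 passed. Adamts1 and Mmp23 missed it with the other variance model, and Mmp14 missed it and Adam17 and Adamts5 passed with the mean of probe sets, Adam17 also with its probe set of largest variance. Over all settings 14 of the 31 named members changed their call at least once. In 17 members at least 1 mean lay within the Trpn range or under it, which limits what can be read for them. The called members Mmp11, Adamts19 and Adam3 are not among these 17, and their CD34- levels were close to that range as well.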
